A study of Mus musculus with 12 samples.

Results

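The interferon-stimulated genes described here are a module of 39 genes, listed by symbol and found by symbol among the 55414 gene IDs of the count tables. All 39 were detected in all 12 libraries and all were among the 13403 genes tested. They were read in osteoclasts, the multinucleated cells that resorb bone, grown from the marrow of mice that carried a Notch2 mutation, a deletion of Hes1, both or neither. Interferons are secreted alarm proteins. Type I interferon binds its receptor on the cell surface, Janus kinases phosphorylate STAT proteins, and these join IRF9 to form a complex that binds the interferon-stimulated response element in front of its target genes. Interferon gamma works through a different STAT complex at another element, the gamma-activated site. Osteoclast precursors make some interferon beta when they are exposed to RANKL, the ligand that drives osteoclast formation, and added type I interferon restrains that formation in mice.

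There were 4 groups of 3 libraries, which the labels call biological replicates. The first group carried the Notch2 mutation and the Hes1 deletion, the second the Notch2 mutation with Hes1 loxP, a Hes1 gene that has loxP sites on both sides and is still present, the third the Hes1 deletion on a wild type Notch2 background, and the fourth wild type Notch2 with Hes1 loxP. NOTCH2 is a cell surface receptor whose cut intracellular part enters the nucleus, and Hes1 is one of its best known target genes, encoding a transcriptional repressor. The labels give neither the Notch2 mutation nor the means by which Hes1 was deleted. All donors were male mice of 7 to 8 weeks. Bone marrow macrophages were grown with M-CSF at 30 ng/ml, RANKL was added on day 3 for 4 days, and stranded mRNA libraries were sequenced as paired reads of 75 bp in 1 pool. Because the RNA came from whole cultures, fewer cells of a type and less RNA per cell cannot be told apart.

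Promoter sequence was read for letters of the elements that interferon signalling is known to use, and no binding was measured. RefSeq (GRCm38.p6) gave a promoter window, 250 bases before to 50 bases after the gene start, for 28 of the 39 genes. No window was matched for Zbp1, Parp14, Dhx58, Rtp4, Usp18, Mx1, Ifi204, Oas2, Ifi27l2a, Parp9 and Mx2. The core of the interferon-stimulated response element, 2 copies of GAAA with any 2 bases between them on either strand, was present in 17 of the 28 genes (60.7%), against 3.99% of the 27025 genes in the table. The gamma-activated site, TTC and GAA with any 3 bases between them, which reads the same on both strands, was present in 6 of the 28 (21.4%), against 9.55% of all genes. Matches could share bases, as the 3 in Isg15 and the 2 in Oas1a do, and in Bst2 a match of one motif overlaps a match of the other. The stretches below lie upstream of the RefSeq gene start and outside annotated exons, and are printed 5′ to 3′ on the strand of the gene, with matches to the response element core in capitals. Isg15, Ifit1, Ifit3, Ifit3b and Oas1a are shown as examples of genes with several matches, which Gbp3, Bst2 and Irgm1 also have. Igtp is shown because it belongs to the GTPases that answer to interferon gamma. Oasl1 is shown because it was the gene of the module that passed the test below. A match to the gamma-activated site, left in small letters, starts 45 bases before the gene start in Igtp and 98 bases before it in Oas1a.
Isg15 (chr4:156200819-156201018, minus strand): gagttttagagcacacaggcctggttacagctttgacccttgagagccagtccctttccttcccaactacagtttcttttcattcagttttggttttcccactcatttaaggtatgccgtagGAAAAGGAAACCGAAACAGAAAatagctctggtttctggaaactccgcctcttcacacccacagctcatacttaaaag
Ifit1 (chr19:34640744-34640870, plus strand): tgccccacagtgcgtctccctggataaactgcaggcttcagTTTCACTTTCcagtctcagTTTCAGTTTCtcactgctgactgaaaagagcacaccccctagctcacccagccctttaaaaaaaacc
Ifit3 (chr19:34583329-34583528, plus strand): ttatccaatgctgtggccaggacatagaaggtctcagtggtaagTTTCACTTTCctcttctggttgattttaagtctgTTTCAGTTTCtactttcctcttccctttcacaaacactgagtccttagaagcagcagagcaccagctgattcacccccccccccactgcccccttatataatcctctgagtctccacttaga
Ifit3b (chr19:34607757-34607956, plus strand): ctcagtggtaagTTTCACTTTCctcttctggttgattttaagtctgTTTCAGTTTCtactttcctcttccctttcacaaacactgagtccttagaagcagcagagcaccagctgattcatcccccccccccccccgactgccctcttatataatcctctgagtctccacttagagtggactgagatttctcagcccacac
Oas1a (chr5:120907526-120907725, minus strand): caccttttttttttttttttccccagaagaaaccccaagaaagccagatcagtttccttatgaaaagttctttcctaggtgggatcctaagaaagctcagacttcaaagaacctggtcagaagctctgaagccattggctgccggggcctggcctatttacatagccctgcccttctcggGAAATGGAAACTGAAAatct
Igtp (chr11:58199356-58199555, plus strand): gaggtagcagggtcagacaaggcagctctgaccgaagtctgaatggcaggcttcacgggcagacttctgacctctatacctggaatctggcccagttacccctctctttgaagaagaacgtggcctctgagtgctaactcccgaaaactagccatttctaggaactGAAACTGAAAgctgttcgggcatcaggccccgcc
Oasl1 (chr5:114923040-114923203, plus strand): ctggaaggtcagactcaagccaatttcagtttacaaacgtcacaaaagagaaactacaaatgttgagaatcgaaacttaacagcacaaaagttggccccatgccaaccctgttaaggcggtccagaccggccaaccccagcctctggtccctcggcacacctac
Isg15 holds its matches as a run of overlapping copies, whereas Ifit1, Ifit3 and Ifit3b hold pairs of separate copies read on the opposite strand. Ifit2, the other IFIT gene, had no match to the core in its windows. No full match to the core was found in the Oasl1 window, which says nothing of factors that bind elsewhere or to other letters.

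Depth ran from 13832368 to 19293772 counts in genes per library. It was lowest in the first Notch2 mutant Hes1 loxP library (13832368) and the first wild type Hes1 loxP library (13873032). Those libraries also had the fewest genes with a count, 18085 and 18232. Values below are CPM, each count scaled by the library's total in genes, and levels of different genes are compared only as CPM per kb of exon. Hes1 itself had 0 to 1 counts per library in Notch2 mutant cells with the Hes1 deletion against 2 to 3 with Hes1 loxP. In wild type cells it had 0 to 2 counts with the deletion against 6 to 11 with Hes1 loxP, so its transcript was close to the counting limit in these cultures whether or not the gene was deleted. Notch2 was at 143 to 175 CPM in the 6 mutant libraries and at 153 to 173 CPM in the 6 wild type libraries. All 11 osteoclast markers, among them the proteases and phosphatase of bone resorption Ctsk, Mmp9 and Acp5, were detected, at a summed 31490 to 50591 CPM. Their sum was 45898 to 50591 CPM in the Notch2 mutant Hes1 loxP libraries against 39145 to 42072 CPM in the wild type Hes1 loxP libraries. By edgeR 1 of the 11, the fusion gene Ocstamp, was called higher (log2 fold change 0.25, adjusted p = 0.0493), a call lost in 9 of the 12 omissions of 1 library, at adjusted p up to 0.213. The 9 macrophage markers summed to 2902 to 3168 CPM in the Notch2 mutant Hes1 loxP libraries against 3121 to 3337 CPM in the wild type Hes1 loxP libraries, and the 9 stromal markers to 98.3 to 209 CPM against 217 to 256 CPM in the same groups. The 7 neutrophil markers summed to 159 to 217 CPM in the Notch2 mutant Hes1 loxP libraries against 210 to 279 CPM in the wild type Hes1 loxP libraries. The 6 markers of plasmacytoid dendritic cells, the cells best known for making type I interferon, summed to 35.04 to 51.2 CPM over all libraries, of which Tcf4, a factor found in many cell types, made up 29.6 to 44.4 CPM. The more specific Siglech and Ccr9 had 23 and 43 counts over all 12 libraries and Klk1 had 0. The 7 dendritic cell markers summed to 32.1 to 56.2 CPM, the 5 of B cells to at most 6.39 CPM and the 6 of T and NK cells to at most 1.03 CPM.

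Levels differed widely between the genes of the module. Per kb of exon, Ifi27l2a (228 CPM per kb), which encodes a small hydrophobic protein, and Bst2 (105 CPM per kb), which encodes tetherin, the protein that holds budding viruses to the cell, stood highest as means over the 12 libraries. Irf7, the factor that amplifies interferon responses, followed at 37.8 CPM per kb, and the classical strongly induced genes Ifi44 (0.846 CPM per kb) and Ifit3b (0.559 CPM per kb) were near the bottom, above Mx2 (0.471 CPM per kb). Ifit3b is 97.8% identical to Ifit3 over 1700 bases and Mx2 95.3% identical to Mx1 over 843 bases, so the levels of both are uncertain.

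The 39 genes together gave 1667, 1553 and 1662 CPM in the Notch2 mutant Hes1 deletion libraries, 1486, 1108 and 1193 CPM in the Notch2 mutant Hes1 loxP libraries, 1571, 1799 and 1876 CPM in the wild type Hes1 deletion libraries, and 1979, 1512 and 1438 CPM in the wild type Hes1 loxP libraries. The lowest of the 12 was thus the second Notch2 mutant Hes1 loxP library and the highest the first wild type Hes1 loxP library. Mean and SD (n = 3 each) were 1627 ± 64.3 CPM with the Notch2 mutation and the Hes1 deletion, 1262 ± 198 CPM with the Notch2 mutation and Hes1 loxP, 1749 ± 159 CPM in wild type with the Hes1 deletion and 1643 ± 293 CPM in wild type with Hes1 loxP. Gene by gene, the Notch2 mutant Hes1 loxP group had the lowest mean of the 4 groups for 37 of the 39 genes, and the wild type Hes1 loxP group for the other 2, Mx1 and Mx2. The highest mean was in the wild type Hes1 deletion group for 30 genes, in the wild type Hes1 loxP group for 5 and in the Notch2 mutant Hes1 deletion group for 4.

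**Figure D1:**
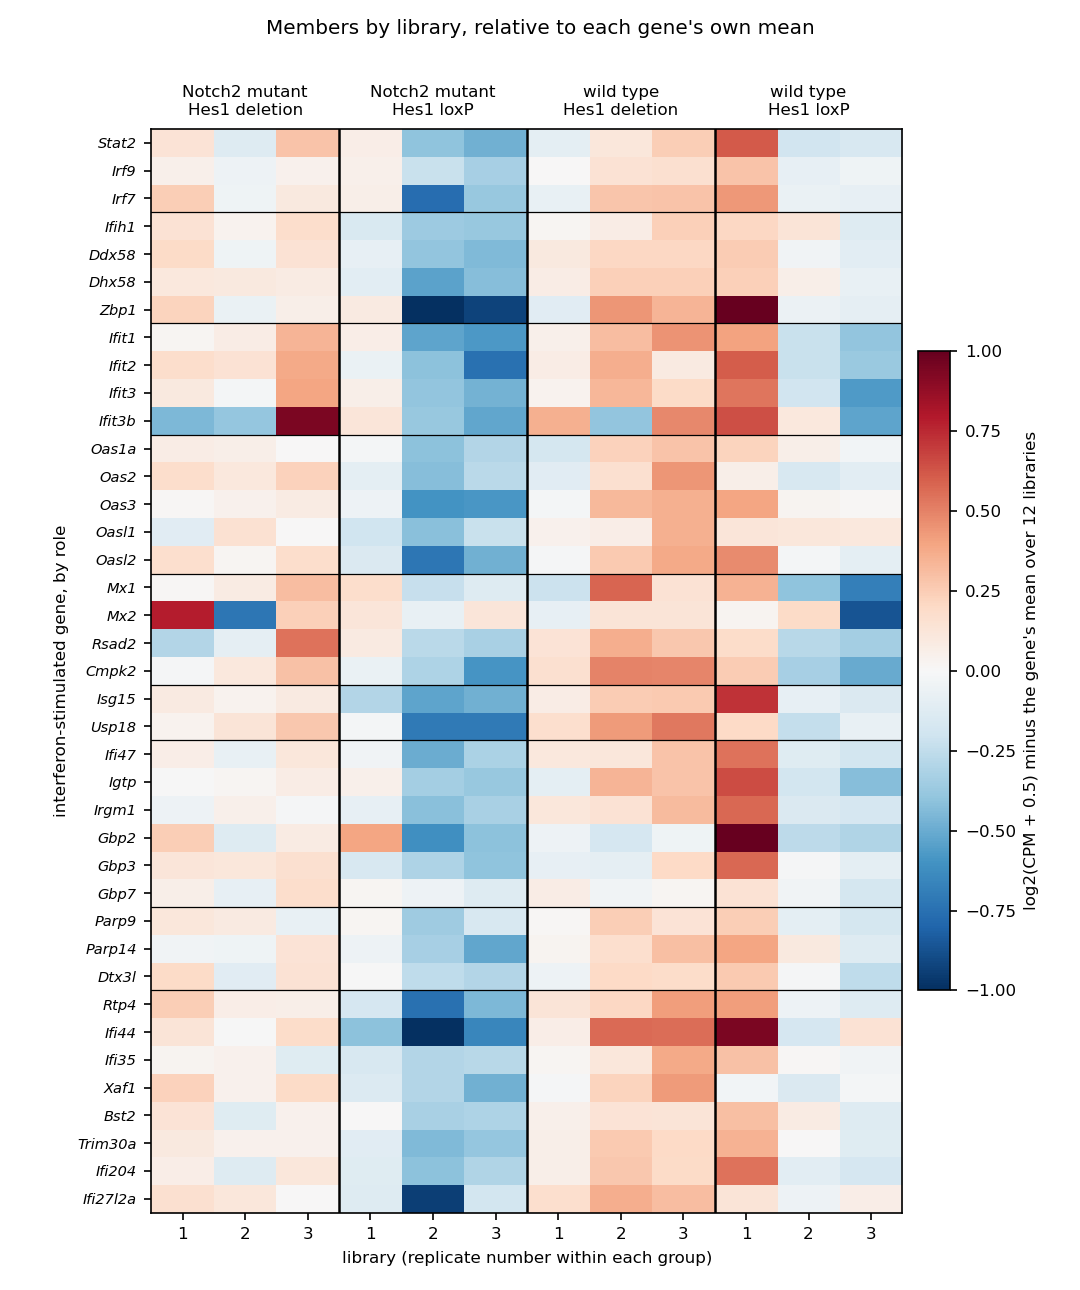
Each row is 1 of the 39 genes and each column 1 library, grouped by genotype. Colour is log2(CPM + 0.5) minus the gene's mean over the 12 libraries, and values beyond 1 in either direction take the end colours. The second and the third Notch2 mutant Hes1 loxP libraries are blue for nearly every gene, and the first wild type Hes1 loxP library is red for most.

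The first comparison asked what the Notch2 mutation did where Hes1 was present. In Notch2 mutant Hes1 loxP osteoclasts 37 of the 39 genes had a lower fitted level than in wild type Hes1 loxP osteoclasts, with a median log2 fold change of -0.37 and a range of -1.25 (Ifi44) to 0.29 (Mx2). Over all 13403 genes the median was 0.00 and 49.1% were negative. A single gene of the 39, Oasl1, passed the test across all genes (edgeR's quasi-likelihood test, Benjamini-Hochberg adjusted p under 0.05), against 0.776% of all genes (0.634% lower and 0.142% higher). Unadjusted p fell under 0.05 for 22 of the 39, against 14.2% of all genes. The 3 mutant libraries all lay below the 3 wild type libraries for 11 of the 39 genes, against 11.1% of all genes, and above them for 0 of the 39, against 7.2%.

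The OAS family binds double-stranded RNA, and its active enzymes make the short oligoadenylates that switch on RNase L. Oasl1, an enzymatically inactive relative known in mice for holding back translation of Irf7, was at 56.3, 48.3 and 55.4 CPM in Notch2 mutant Hes1 loxP libraries, against 70.4, 70.2 and 69.9 CPM in wild type Hes1 loxP libraries. The groups did not overlap, and the wild type libraries were almost equal. The means were 53.4 ± 4.36 CPM in Notch2 mutant and 70.2 ± 0.285 CPM in wild type libraries (SD, n = 3 each). Oasl1 fell by 0.37 ± 0.08 on the log2 scale (SE, edgeR adjusted p = 0.0410). The call was lost without any 1 of 7 libraries, at adjusted p = 0.0515, 0.104 and 0.0742 without the first, second and the third Notch2 mutant Hes1 loxP library, 0.115, 0.102 and 0.0658 without the first, second and the third wild type Hes1 loxP library, and 0.0569 without the third Notch2 mutant Hes1 deletion library. A further OAS gene, Oas3, encodes the family member with the longest chain of synthetase units. It had 68.2, 46.5 and 47.1 CPM in Notch2 mutant Hes1 loxP libraries, against 92.8, 71.9 and 71.2 CPM in wild type Hes1 loxP libraries, without overlap (log2 fold change -0.52 ± 0.13, edgeR adjusted p = 0.0610). Oasl2 also did not overlap (log2 fold change -0.55, edgeR adjusted p = 0.0730), while Oas1a (-0.30) and Oas2 (-0.17) did. Reads of Oas1a are uncertain, since its transcript is 97.6% identical to that of Oas1g over 1861 bases.

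**Figure D2:**
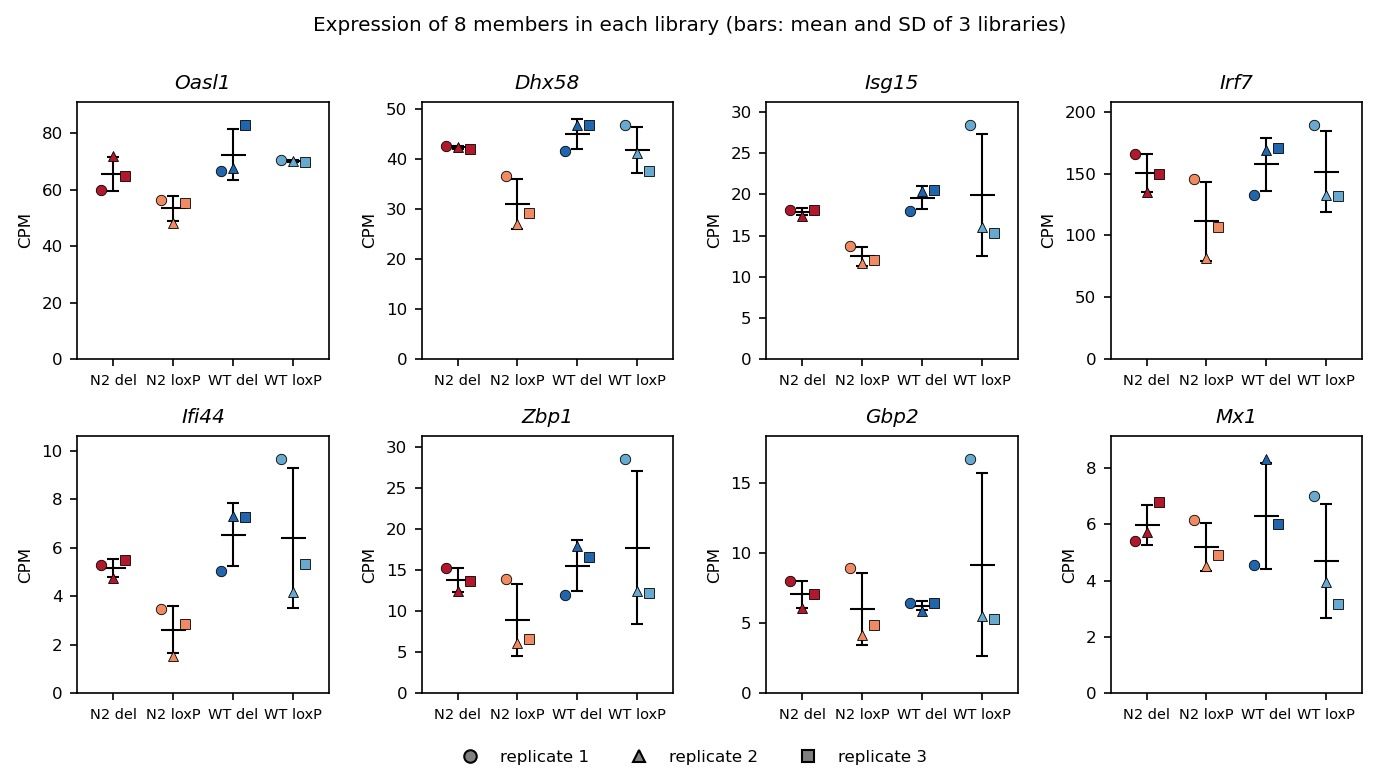
CPM (vertical axes, from 0) of 8 of the genes in each library, by group: N2 del is Notch2 mutant Hes1 deletion, N2 loxP is Notch2 mutant Hes1 loxP, WT del is wild type Hes1 deletion and WT loxP is wild type Hes1 loxP. Circles, triangles and squares are replicates 1, 2 and 3, and bars give the mean and SD of 3 libraries. For Oasl1 the N2 loxP libraries lie at 48.3 to 56.3 CPM, below the WT loxP libraries at 69.9 to 70.4 CPM.

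Isg15 encodes a ubiquitin-like protein that is attached to other proteins, and Usp18 the protease that removes it and that also blocks the type I receptor. Isg15 had 13.7, 11.6 and 12.03 CPM in Notch2 mutant Hes1 loxP libraries, against 28.4, 16.02 and 15.3 CPM in wild type Hes1 loxP libraries. The groups did not overlap, but the first wild type library stood far above the other two (log2 fold change -0.63 ± 0.17, edgeR adjusted p = 0.0842). A near copy of Isg15 annotated as AC151275.1 is 95.2% identical over 482 bases, so its reads may be shared. Usp18 had 11.4, 6.92 and 6.92 CPM in Notch2 mutant Hes1 loxP libraries, against 13.4, 9.80 and 11.01 CPM in wild type Hes1 loxP libraries. The first mutant library reached into the wild type range (log2 fold change -0.42 ± 0.17, edgeR adjusted p = 0.258).

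Among the sensors of foreign nucleic acid Dhx58 had the smallest p. Dhx58, which encodes LGP2, a regulator of the RNA sensors RIG-I (Ddx58) and MDA5 (Ifih1), had 36.7, 27.1 and 29.3 CPM in Notch2 mutant Hes1 loxP libraries, against 46.8, 41.2 and 37.6 CPM in wild type Hes1 loxP libraries. The groups came within 1 CPM of each other without overlapping (log2 fold change -0.41 ± 0.10, edgeR adjusted p = 0.0520). Ifih1 had 29.4, 25.2 and 25.0 CPM in Notch2 mutant Hes1 loxP libraries, against 37.8, 35.8 and 29.8 CPM in wild type Hes1 loxP libraries (log2 fold change -0.35 ± 0.09, edgeR adjusted p = 0.0755). Those groups were also separate by a narrow margin. Zbp1, whose product binds left-handed nucleic acid and can start necroptosis, had 13.95, 6.20 and 6.64 CPM in Notch2 mutant Hes1 loxP libraries, against 28.5, 12.5 and 12.2 CPM in wild type Hes1 loxP libraries. In both groups the first library had more than the other two together, and the groups overlapped (log2 fold change -0.97 ± 0.30, edgeR adjusted p = 0.137).

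Of the transcription factors, Irf7 had 145.6, 82.2 and 107 CPM in Notch2 mutant Hes1 loxP libraries, against 189, 133 and 132 CPM in wild type Hes1 loxP libraries. The first mutant library lay inside the wild type range (log2 fold change -0.42 ± 0.16, edgeR adjusted p = 0.241). Irf9, the DNA-binding part of the type I complex, differed less, with 46.2, 38.2 and 35.3 CPM in Notch2 mutant Hes1 loxP libraries, against 54.3, 42.1 and 43.3 CPM in wild type Hes1 loxP libraries (log2 fold change -0.20 ± 0.10, edgeR adjusted p = 0.359). Stat2 was at a log2 fold change of -0.36 (edgeR adjusted p = 0.376).

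The effectors with broader or less settled roles included the gene at the low end of the range. Ifi44, linked to antiviral defence, had 3.47, 1.56 and 2.87 CPM in Notch2 mutant Hes1 loxP libraries, against 9.66, 4.198 and 5.34 CPM in wild type Hes1 loxP libraries. The groups did not overlap (log2 fold change -1.25 ± 0.29, edgeR adjusted p = 0.0525). Rtp4, a receptor transporter protein that dampens interferon responses in mice, had 44.7, 29.8 and 36.7 CPM in Notch2 mutant Hes1 loxP libraries, against 67.4, 48.7 and 45.9 CPM in wild type Hes1 loxP libraries (log2 fold change -0.52 ± 0.14, edgeR adjusted p = 0.0793). Those groups were separate by little more than 1 CPM. Ifi35 and Ifi27l2a did not overlap either, and all 8 genes of this class were negative, with Xaf1 closest to 0 at -0.23.

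The GTPases that answer to interferon gamma attack the membranes around intracellular microbes. Gbp3 had 14.3, 12.9 and 12.03 CPM in Notch2 mutant Hes1 loxP libraries, against 24.2, 15.9 and 14.96 CPM in wild type Hes1 loxP libraries, without overlap (log2 fold change -0.45 ± 0.14, edgeR adjusted p = 0.145). Irgm1, a regulator of this GTPase family, had 42.9, 33.9 and 36.1 CPM in Notch2 mutant Hes1 loxP libraries, against 67.8, 41.1 and 40.3 CPM in wild type Hes1 loxP libraries. The first wild type library again stood apart, and the groups overlapped (log2 fold change -0.37 ± 0.14, edgeR adjusted p = 0.242). Gbp2 had the widest spread, with 8.96, 4.19 and 4.89 CPM in Notch2 mutant Hes1 loxP libraries, against 16.7, 5.49 and 5.34 CPM in wild type Hes1 loxP libraries, while Gbp7 hardly differed (log2 fold change -0.01).

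The IFIT proteins, which bind foreign RNA ends, had log2 fold changes of -0.55 (Ifit3b) to -0.24 (Ifit3), with overlapping groups. Ifit1 had 11.1, 7.15 and 6.92 CPM in Notch2 mutant Hes1 loxP libraries, against 14.1, 8.97 and 7.90 CPM in wild type Hes1 loxP libraries (log2 fold change -0.27 ± 0.20, edgeR adjusted p = 0.592). Ifit2 had 7.52, 5.81 and 4.50 CPM in Notch2 mutant Hes1 loxP libraries, against 12.2, 6.69 and 6.01 CPM in wild type Hes1 loxP libraries (log2 fold change -0.45 ± 0.22, edgeR adjusted p = 0.383). In each IFIT gene the first library was the highest of its group in both genotypes. Transcripts of Ifit3 and Ifit3b are 97.8% identical over 1700 bases, so reads of the pair are uncertain.

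The antiviral Mx GTPases went against the rest. Mx1 had 6.15, 4.52 and 4.89 CPM in Notch2 mutant Hes1 loxP libraries, against 6.99, 3.94 and 3.17 CPM in wild type Hes1 loxP libraries (log2 fold change 0.19 ± 0.25, edgeR adjusted p = 0.792). Mx2, annotated as a polymorphic pseudogene and 95.3% identical to Mx1 over 843 bases, had 1.81, 1.51 and 1.80 CPM in Notch2 mutant Hes1 loxP libraries, against 1.66, 1.92 and 0.667 CPM in wild type Hes1 loxP libraries (log2 fold change 0.29 ± 0.41, edgeR adjusted p = 0.803). Both signs turned without the third wild type Hes1 loxP library, to -0.03 for Mx1 and -0.06 for Mx2. Rsad2, which encodes viperin, and its neighbour Cmpk2, a nucleotide kinase, were at 0.00 and -0.12.

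Parp14 and the partners Parp9 and Dtx3l modify proteins with ADP-ribose or ubiquitin. Parp14 had 105.5, 87.2 and 76.4 CPM in Notch2 mutant Hes1 loxP libraries, against 144, 117 and 100.002 CPM in wild type Hes1 loxP libraries (log2 fold change -0.40 ± 0.11, edgeR adjusted p = 0.101). Dtx3l had 45.5, 38.1 and 37.2 CPM in Notch2 mutant Hes1 loxP libraries, against 54.8, 45.4 and 38.3 CPM in wild type Hes1 loxP libraries (log2 fold change -0.17 ± 0.11, edgeR adjusted p = 0.539). The groups overlapped for both. Parp9 and Dtx3l overlap on opposite strands over 458 exonic bases, and the sources used here do not say whether reads were assigned by strand.

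**Figure D3:**
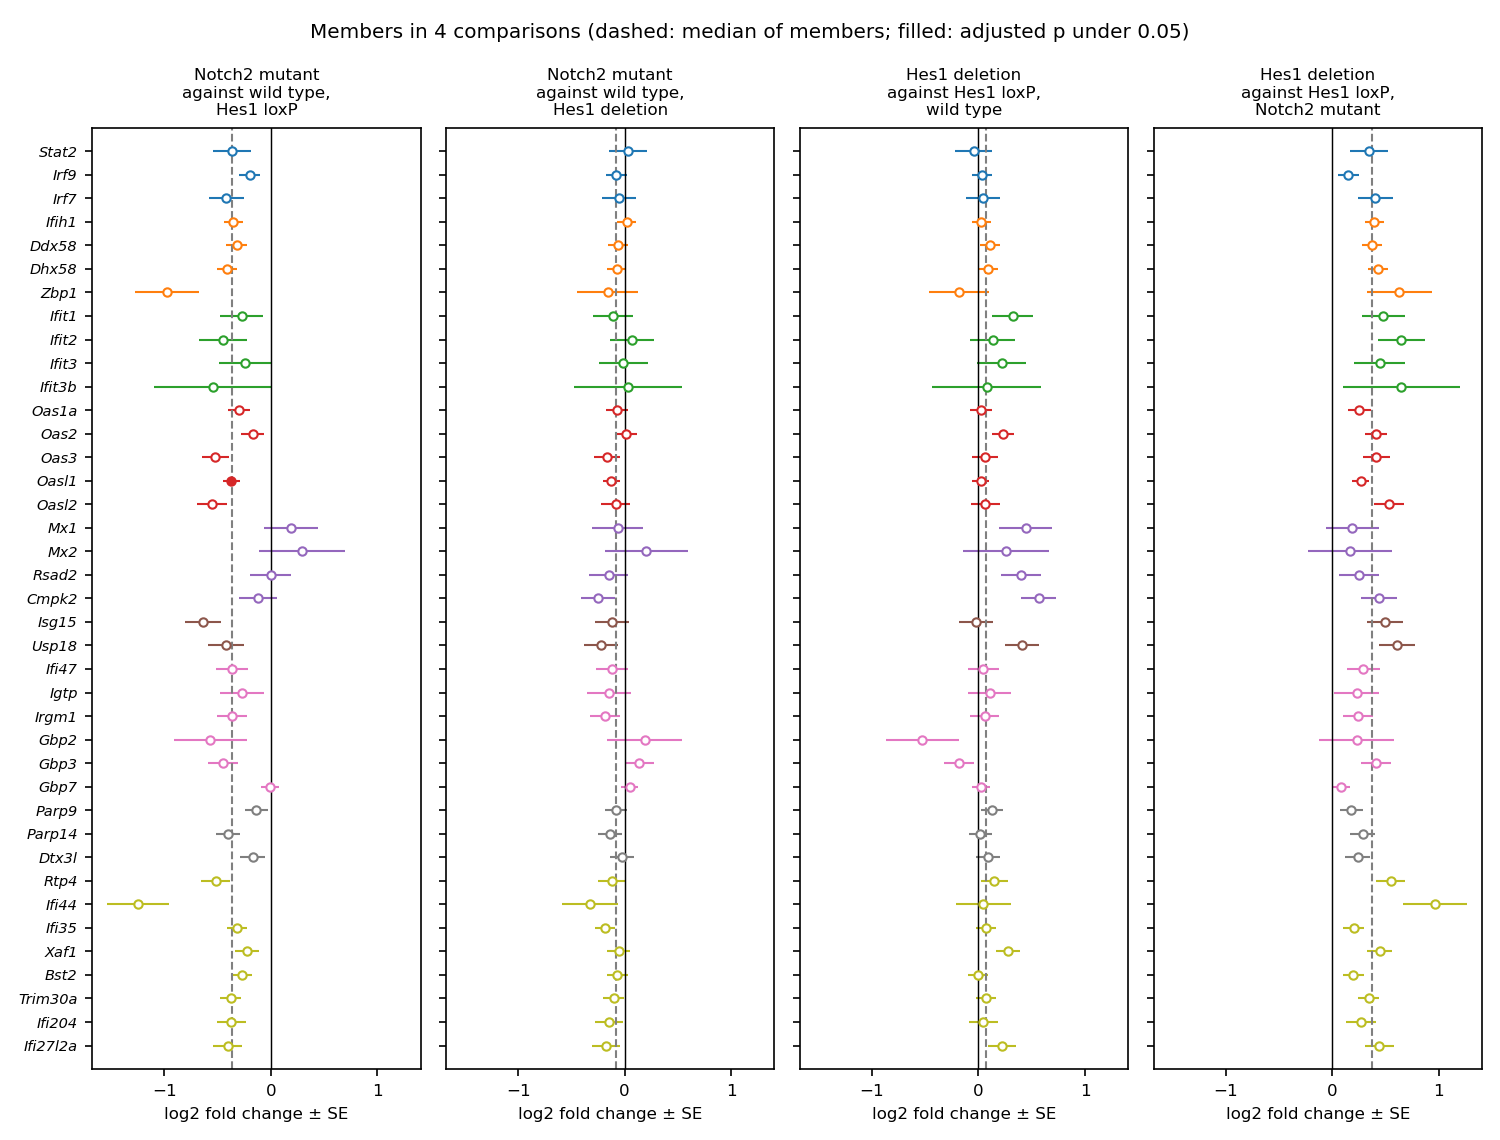
Log2 fold change ± SE (horizontal axes) of the 39 genes (rows, coloured by role) in 4 comparisons, with the median of the 39 as a dashed line and a filled point where the adjusted p was under 0.05. The medians are -0.37, -0.08, 0.07 and 0.37 from left to right, and Oasl1 in the left panel is the filled point.

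The size of this difference changed with the libraries included, among them the first wild type Hes1 loxP library. That library was the highest of its group for 37 of the 39 genes, against 37.1% of all genes, and the highest of all 12 libraries for 21. Its CPM over the mean of the other 2 libraries of its group was 1.42 at the median of the 39 genes, from 1.01 for Oasl1 to 3.09 for Gbp2, and over 1.5 for 16 of the 39 (41.0%), against 4.16% of all genes. All 4 IFIT genes and 5 of the 6 GTPases were over 1.5 there, against 0 of the 5 OAS genes. The first Notch2 mutant Hes1 loxP library was likewise the highest of its group for all 39 genes, against 31.6% of all genes, with a median ratio of 1.30, from 1.08 for Gbp7 to 2.17 for Zbp1. In the wild type Hes1 deletion group the first library was instead the lowest for 35 of the 39, against 35.9% of all genes. In the Notch2 mutant Hes1 deletion group it was the highest for 15 (32.7% of all genes) and the lowest for 10 (34.5%). The median SD of the 39 genes within a group was 0.23 on the log2 scale in the Notch2 mutant Hes1 loxP group, where it was 0.105 for all genes, and 0.29 in the wild type Hes1 loxP group, where it was 0.0988 for all genes. With the Hes1 deletion it was 0.11 in the Notch2 mutant group (0.0942 for all genes) and 0.15 in the wild type group (0.103 for all genes).

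**Figure D4:**
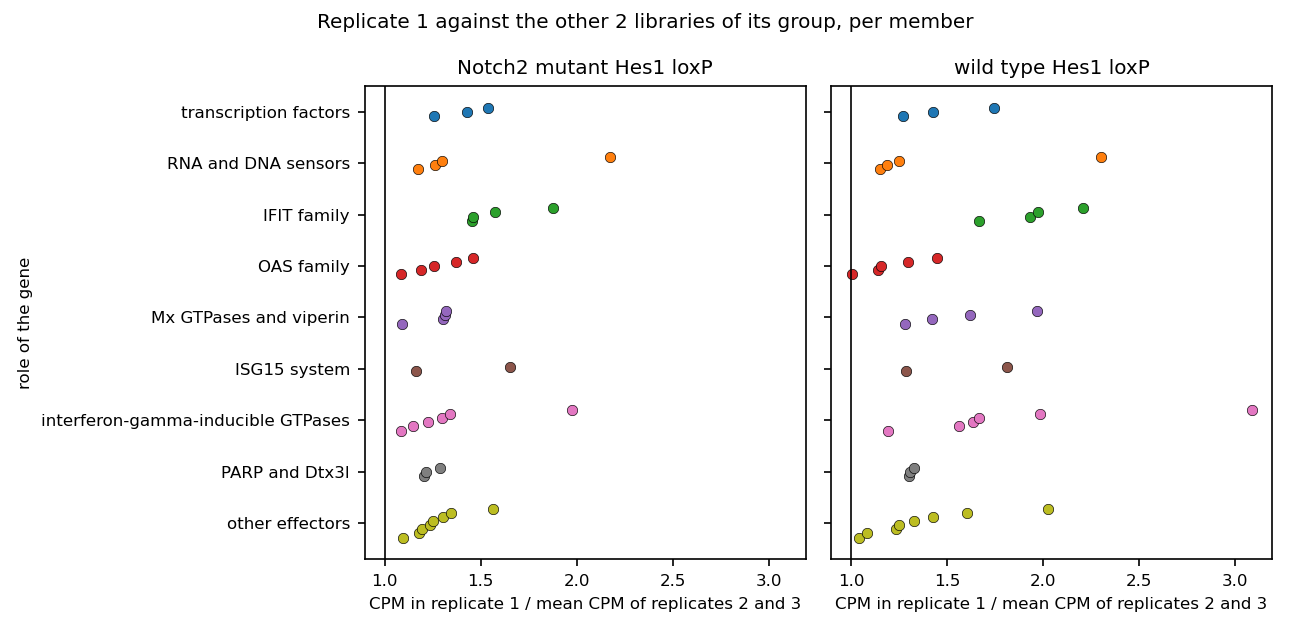
For each of the 39 genes (points, in rows by role), CPM in replicate 1 divided by the mean CPM of replicates 2 and 3, in the Notch2 mutant Hes1 loxP group (left) and the wild type Hes1 loxP group (right). All points lie above 1, from 1.08 to 2.17 on the left and from 1.01 to 3.09 on the right.

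Without the first wild type Hes1 loxP library the median of the 39 genes was -0.17, with 31 negative and 0 called by edgeR, against 0.190% of all genes. Without the first Notch2 mutant Hes1 loxP library it was -0.47, with 9 called, against 0.724% of all genes, among them Dhx58, Oas3, Oasl2 and Usp18 but not Oasl1. Without the third wild type Hes1 loxP library it was -0.48, with all 39 negative and 7 called, against 0.880% of all genes. Libraries outside the comparison, which share its estimate of spread, also moved the count: 4 were called without the first wild type Hes1 deletion library, against 0.821% of all genes, and 7 without the third of that group, against 2.12%. The count was 0 without the third Notch2 mutant Hes1 deletion library or the second or the third Notch2 mutant Hes1 loxP library, against 0.615%, 0.337% and 0.205% of all genes, and Ifi44 took the place of Oasl1 without the second wild type Hes1 loxP library. Without both first libraries, a setting chosen after these values were seen, the median was -0.28 and the called genes were Dhx58, Zbp1 and Oas3, against 0.191% of all genes.

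Cell type markers differed in both directions in the same comparison. Of the 9 macrophage markers 6 were negative and 3 positive. By edgeR 3 of the 9 fell in Notch2 mutant Hes1 loxP osteoclasts and 0 rose, against 0.634% and 0.142% of all genes. Fcgr1, an Fc receptor that itself answers to interferon gamma, had 27.04, 21.9 and 21.03 CPM in Notch2 mutant Hes1 loxP libraries, against 53.9, 38.4 and 34.2 CPM in wild type Hes1 loxP libraries (log2 fold change -0.83, edgeR adjusted p = 0.0127). Msr1, a scavenger receptor, had a log2 fold change of -0.47 (edgeR adjusted p = 0.00750) and Adgre1, which encodes F4/80, of -0.42 (edgeR adjusted p = 0.0158). Fcgr1 lost its call without the third Notch2 mutant Hes1 loxP library (edgeR adjusted p = 0.0604), and Msr1 kept its call in all 12 omissions of 1 library but not without both first libraries (0.0750). Adgre1 lost its call without the second or the third Notch2 mutant Hes1 loxP library (0.0683 and 0.0588) and without the first or second wild type Hes1 loxP library (0.0726 and 0.0606). Csf1r, the M-CSF receptor, made up most of the macrophage sum and was at 0.12 (edgeR adjusted p = 0.317). All 6 dendritic cell markers tested and the 2 of B cells were positive, with 0 called. Of the 11 osteoclast markers 10 were positive. All 7 neutrophil markers were negative and 0 were called, and all 8 stromal markers tested were negative. Cxcl12 was called among them at under 1 CPM in every library of both groups (edgeR adjusted p = 0.0493), and lost the call in 9 of the 12 omissions of 1 library, at adjusted p up to 0.202. The first wild type Hes1 loxP library also had the largest macrophage marker sum of all libraries, 3337 CPM. The part of these markers in the difference between genotypes was not tested.

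With Hes1 deleted, the same comparison of Notch2 genotypes gave values close to 0. The 39 genes had a median log2 fold change of -0.08 in Notch2 mutant Hes1 deletion osteoclasts against wild type Hes1 deletion osteoclasts, from -0.32 (Ifi44) to 0.20 (Mx2), and 30 were negative. By edgeR 0 of the 39 were called, against 0.0149% of all genes, 0 had an unadjusted p under 0.05, against 6.69% of all genes, and DESeq2 and limma-voom called 0. Oasl1 had 59.7, 71.9 and 64.8 CPM in Notch2 mutant Hes1 deletion libraries, against 66.5, 67.7 and 82.8 CPM in wild type Hes1 deletion libraries (log2 fold change -0.13 ± 0.08, edgeR adjusted p = 0.816). Its libraries overlapped, as did those of all but Irgm1 and Ifi27l2a, which were lower in all 3 mutant libraries. The share of all genes with that pattern was 7.48%.

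Deleting Hes1 on the Notch2 mutant background went with higher fitted values of the whole module. All 39 genes were positive in Notch2 mutant Hes1 deletion osteoclasts against Notch2 mutant Hes1 loxP osteoclasts, against 49.0% of all genes, with a median log2 fold change of 0.37 and a range of 0.08 (Gbp7) to 0.97 (Ifi44). By edgeR 0 of the 39 were called, against 0.0373% of all genes, the smallest adjusted p being 0.356 (Dhx58), and DESeq2 and limma-voom called 0. Unadjusted p fell under 0.05 for 21 of the 39, against 4.76% of all genes. All 3 deletion libraries lay above all 3 loxP libraries for 21 of the 39, against 8.1% of all genes. The Notch2 mutant Hes1 loxP libraries in this comparison are the same ones that entered the comparison with wild type above, so the opposite signs are not independent.

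Dhx58 was at 42.7, 42.5 and 42.0 CPM in Notch2 mutant Hes1 deletion libraries, against 36.7, 27.1 and 29.3 CPM in Notch2 mutant Hes1 loxP libraries (log2 fold change 0.43 ± 0.10, edgeR adjusted p = 0.356). The deletion libraries were nearly equal and lay above every loxP library. Ifi44 was at 5.28, 4.75 and 5.48 CPM in Notch2 mutant Hes1 deletion libraries, against 3.47, 1.56 and 2.87 CPM in Notch2 mutant Hes1 loxP libraries (log2 fold change 0.97 ± 0.30, edgeR adjusted p = 0.816). Usp18 was at 11.9, 12.8 and 14.1 CPM in Notch2 mutant Hes1 deletion libraries, against 11.4, 6.92 and 6.92 CPM in Notch2 mutant Hes1 loxP libraries, with the first loxP library just under the deletion libraries (log2 fold change 0.61 ± 0.17, edgeR adjusted p = 0.706). Without the first Notch2 mutant Hes1 loxP library the median was 0.49 and edgeR called 2 of the 39, Dhx58 and Usp18. Over the omissions of 1 library, 3 to 6 of all genes were called in this comparison. Osteoclast markers summed to 37742 to 41931 CPM in the Notch2 mutant Hes1 deletion libraries against 45898 to 50591 CPM with Hes1 loxP. Of the 11 markers edgeR called Ctsk, the protease cathepsin K, which averaged 5048 CPM in the Notch2 mutant Hes1 deletion group against 10631 CPM with Hes1 loxP (log2 fold change -1.11, edgeR adjusted p = 8.89e-08). It likewise averaged 4586 CPM in the wild type Hes1 deletion group against 9026 CPM in wild type with Hes1 loxP (edgeR adjusted p = 4.84e-07). The other 10 markers summed to 32866 to 36637 CPM in the Notch2 mutant Hes1 deletion libraries against 35504 to 39459 CPM with Hes1 loxP, and 0 of them were called. The part of the markers in the values was not tested.

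On the wild type background the differences with the Hes1 deletion were small at the median and mostly positive. The median log2 fold change of the 39 genes was 0.07 in wild type Hes1 deletion osteoclasts against wild type Hes1 loxP osteoclasts. The values ran from -0.53 (Gbp2) to 0.57 (Cmpk2), and 33 of the 39 were positive, against 50.5% of all genes. By edgeR 0 of the 39 were called, against 0.0373% of all genes, 5 had an unadjusted p under 0.05 (Oas2, Rsad2, Cmpk2, Usp18 and Xaf1), against 5.93% of all genes, and DESeq2 and limma-voom called 0. Cmpk2 had 15.6, 19.9 and 19.8 CPM in wild type Hes1 deletion libraries, against 16.7, 10.99 and 9.68 CPM in wild type Hes1 loxP libraries, and the groups overlapped through the first loxP library (log2 fold change 0.57 ± 0.17, edgeR adjusted p = 0.516). The median was 0.25, with all 39 positive, without the first wild type Hes1 loxP library and -0.03 without the third. It was 0.14 without the first wild type Hes1 deletion library and 0.03 without the third of that group or the second wild type Hes1 loxP library. Xaf1 and Ifi27l2a were higher in all 3 deletion libraries, a pattern shared by 7.28% of all genes.

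Whether the Hes1 deletion acted differently on the 2 Notch2 backgrounds was tested with an interaction term, in which a positive value means a larger rise, or smaller fall, with the deletion in Notch2 mutant than in wild type osteoclasts. The median over the 39 genes was 0.23, and 35 were positive, against 49.2% of all genes. The 4 negative genes were Mx1, Mx2, Rsad2 and Cmpk2. By edgeR 0 of the 39 and 0% of all genes were called, 8 of the 39 had an unadjusted p under 0.05 (Ifih1, Dhx58, Oasl1, Oasl2, Isg15, Gbp3, Rtp4 and Ifi44), against 3.78% of all genes, and DESeq2 and limma-voom called 0. A difference between the backgrounds was thus not detected for any single gene with 3 libraries per group.

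The other parts of the pathway were read from lists of their own, here in Notch2 mutant Hes1 loxP against wild type Hes1 loxP osteoclasts. The interferons themselves were hardly counted. Of 21 interferon genes, 18 had 0 counts in all 12 libraries, and the others, Ifnb1, Ifnz and Ifng, had 5 counts in all, so none could be tested. The 9 receptor and Janus kinase genes had a median log2 fold change of 0.05, with 0 called by edgeR, DESeq2 or limma-voom and 0 at an unadjusted p under 0.05. Ifnar1, a chain of the type I receptor, had 153, 155 and 151 CPM in Notch2 mutant Hes1 loxP libraries, against 165, 156 and 158 CPM in wild type Hes1 loxP libraries (log2 fold change -0.04 ± 0.04, edgeR adjusted p = 0.761).

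Of the 6 STAT and IRF factors outside the module that were read, 3 were negative, with a median of -0.07. By edgeR 0 were called, 1 had an unadjusted p under 0.05, against 14.2% of all genes, and DESeq2 and limma-voom called 0. Irf5, a factor that acts downstream of Toll-like receptors, had 142.6, 124.7 and 131.5 CPM in Notch2 mutant Hes1 loxP libraries, against 160.8, 142.8 and 150.3 CPM in wild type Hes1 loxP libraries, separate by a narrow margin (log2 fold change -0.16 ± 0.06, edgeR adjusted p = 0.189). Irf1, an early target of interferon gamma, had 45.9, 33.8 and 38.3 CPM in Notch2 mutant Hes1 loxP libraries, against 81.2, 34.8 and 37.0 CPM in wild type Hes1 loxP libraries (log2 fold change -0.33 ± 0.22, edgeR adjusted p = 0.540). For Irf1 the groups overlapped, and the first wild type library stood far above the other two.

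Of the 14 adaptors, kinases and other sensors, 10 were negative, with a median of -0.14. By edgeR 0 were called and 6 had an unadjusted p under 0.05, against 0.776% and 14.2% of all genes. DESeq2 called 2, against 0.965% of all genes, and limma-voom called 0, against 0.821%. The endosomal RNA receptor Tlr7 had 46.6, 42.2 and 39.8 CPM in Notch2 mutant Hes1 loxP libraries, against 62.9, 52.5 and 48.6 CPM in wild type Hes1 loxP libraries, without overlap (log2 fold change -0.33 ± 0.08, edgeR adjusted p = 0.0720). Of the 10 restraints of the pathway that were tested, such as Socs1, an inhibitor of Janus kinases, 8 were negative, with a median of -0.15. By edgeR 0 were called, 3 had an unadjusted p under 0.05, against 14.2% of all genes, and DESeq2 and limma-voom called 0.

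A list of 64 further interferon-stimulated genes, of which 60 were tested, was also mostly negative. In Notch2 mutant Hes1 loxP osteoclasts 53 of the 60 were negative, against 49.1% of all genes, with a median log2 fold change of -0.23. By edgeR 4 fell and 0 rose, against 0.634% and 0.142% of all genes. Unadjusted p fell under 0.05 for 28 of the 60, against 14.2% of all genes. DESeq2 called 11, against 0.965% of all genes, and limma-voom 5, against 0.821%. Without the first wild type Hes1 loxP library the median was -0.10, with 43 negative, against 50.9% of all genes, and 1 called, against 0.190%. Without both first Hes1 loxP libraries it was -0.19, with 47 negative, against 50.6% of all genes, and 0 called, against 0.191%. The count called was also 0 without the third Notch2 mutant Hes1 loxP library, against 0.205% of all genes. It was 2 without the second Notch2 mutant Hes1 loxP library, against 0.337% of all genes. Without the second wild type Hes1 loxP library it was also 2, against 0.256%. Without the first Notch2 mutant Hes1 loxP library 7 were called, against 0.724% of all genes. Without the third wild type Hes1 deletion library 8 were called, against 2.12%. Rnf213, a large ubiquitin ligase, had 320.4, 330.5 and 251 CPM in Notch2 mutant Hes1 loxP libraries, against 458, 516 and 384 CPM in wild type Hes1 loxP libraries (log2 fold change -0.57 ± 0.10, edgeR adjusted p = 0.0127). Ifitm3, which blocks entry of viruses from endosomes, had 238, 195 and 218 CPM in Notch2 mutant Hes1 loxP libraries, against 323, 278 and 274 CPM in wild type Hes1 loxP libraries (log2 fold change -0.40 ± 0.08, edgeR adjusted p = 0.0190). Neither pair of groups overlapped.

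The other called genes of that list were Ms4a6b (log2 fold change -0.52 ± 0.09, edgeR adjusted p = 0.0131), a membrane protein of the CD20-related family, and Phf11d (-0.45 ± 0.10, edgeR adjusted p = 0.0460). Without the first wild type Hes1 loxP library Rnf213 kept its call (edgeR adjusted p = 0.0404), and Ifitm3 (0.0913), Ms4a6b (0.0556) and Phf11d (0.130) lost theirs. Without both first Hes1 loxP libraries none of the 4 was called, at edgeR adjusted p = 0.0618 for Rnf213, 0.0549 for Ifitm3, 0.0792 for Ms4a6b and 0.156 for Phf11d. Without the third Notch2 mutant Hes1 loxP library none of the 4 was called, at edgeR adjusted p = 0.0527 for Rnf213, 0.0664 for Ifitm3, 0.0510 for Ms4a6b and 0.131 for Phf11d. The second wild type Hes1 loxP library also decided Rnf213 (0.0557 without it), the second Notch2 mutant Hes1 loxP library Ifitm3 (0.0728), and Phf11d lost its call in 6 further omissions of 1 library. Those were the third Notch2 mutant Hes1 deletion library (0.0616), the first and second Notch2 mutant Hes1 loxP libraries (0.0581 and 0.101), the second wild type Hes1 deletion library (0.0546) and the second and the third wild type Hes1 loxP libraries (0.121 and 0.0531). With the Hes1 deletion on the Notch2 mutant background 54 of the 60 were positive, against 49.0% of all genes, with a median of 0.19. By edgeR 0 of them were called, and DESeq2 and limma-voom called 0. Unadjusted p was under 0.05 for 17, against 4.76% of all genes.

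**Figure D5:**
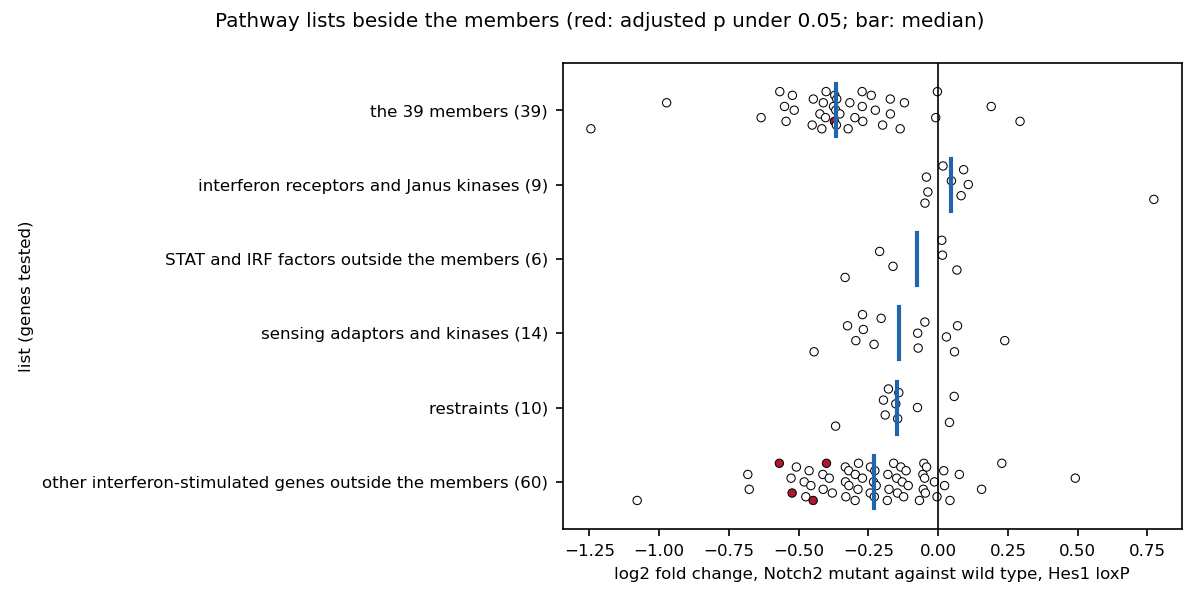
Log2 fold change of Notch2 mutant against wild type osteoclasts with Hes1 loxP (horizontal axis) for the genes of each list (points), with the median as a bar and genes of adjusted p under 0.05 in red. The medians are -0.37 for the 39 genes, 0.05 for receptors and Janus kinases, -0.07 for STAT and IRF factors, -0.14 for sensing adaptors and kinases, -0.15 for restraints and -0.23 for the 60 further interferon-stimulated genes.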

How the data were processed

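Read counts per gene ID, made and deposited by the authors with 1 table per library, were the starting values. HISAT2, SAMtools, Picard, HTSeq and DESeq2 and the build GRCm38 are named in the submitters' processing notes, with no versions. The annotation and whether reads were assigned by strand are not stated there or in the labels. The 5 summary rows of each table, 15.8% to 19.0% of its counts, were left out. IDs were named from GENCODE M21, which matched 52081 of 55414, and IDs without a name took up to 0.180% of the counts.

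Genes were filtered with filterByExpr (minimum count 10, minimum total 15), and edgeR 4.0.16 in R 4.3.3 fitted 1 quasi-likelihood model with TMM factors to the 4 groups of 3 libraries, without a replicate term. There were 5 contrasts, each adjusted over all 13403 genes by the Benjamini-Hochberg method, and genes with an adjusted p under 0.05 were called. The script was tested on simulated counts. DESeq2 1.42.0, limma-voom (limma 3.58.1), other scaling and filters, a replicate block, the compared groups alone and the omission of each library were tried as alternatives. The omission of both first Hes1 loxP libraries was added after the data were seen.

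The 39 genes and all lists were chosen with earlier results of these data known. Values are given in full for the 2 genes of each role with the smallest p in the first comparison, and for genes that passed the test. Pathway genes were named if called or among the 3 smallest p of their list. Zbp1, Gbp2, Irf1, Ifnar1 and Socs1 were added after their values were seen. Cgas was listed under its older symbol Mb21d1, and Mnda was not found. A further listed pathway gene is not reported here. Near copies were found with BLAST 2.17.0. P-values measure the spread between these libraries, since the labels do not say which animals the replicates came from.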

Additional observations from a re-analysis of the deposited data

How the results depend on the processing

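The direction of the median over the 39 genes held under all alternatives for the Notch2 comparisons and for the Hes1 deletion in Notch2 mutant cells. Leaving out 1 library at a time, the median lay between -0.48 and -0.17 for Notch2 mutant against wild type with Hes1 loxP, and between -0.033 and 0.25 for the Hes1 deletion in wild type cells, where leaving out both first Hes1 loxP libraries gave 0.25. For the interaction it lay between 0.13 and 0.37, and for Notch2 mutant against wild type with the Hes1 deletion between -0.16 and -0.05. The signs of Mx1 and Mx2 turned without the third wild type Hes1 loxP library, and without 1 library Mx1 lay between -0.034 and 0.55 and Mx2 between -0.064 and 0.63. Calls depended far more on the setting, and the cause was not tested.

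For Notch2 mutant against wild type with Hes1 loxP, edgeR called 104 genes, against 657 without the filter on low counts, 242 with DESeq2, 26 without both first libraries and 26 to 289 without 1 library. Of the 39 genes it called 1, against 0.776% of all genes. The count was 24 without the filter (2.62% of all genes), 6 with DESeq2 (0.965%), 2 with limma-voom (0.821%) and 2 with RLE size factors (0.873%). Without both first libraries it was 3 (0.191% of all genes), and without 1 library 0 to 9 (0.190% to 2.12%). With the Hes1 deletion, 2 genes were called, against 138 without the filter, 1 at a mean count of at least 50, 1 with limma-voom, 1 without both first libraries and 0 to 5 without 1 library.

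For the Hes1 deletion in Notch2 mutant cells 5 genes were called, against 110 without the filter, 2 at a mean count of at least 50, 3 with limma-voom, 17 without both first libraries and 3 to 6 without 1 library. Of the 39 genes, 0 were called, against 22 without the filter, 10 without both first libraries and 0 to 2 without 1 library. In wild type cells 5 genes were called, against 135 without the filter, 2 at a mean count of at least 50 and 3 to 26 without 1 library. Of the 39 genes, 1 (Cmpk2) was called without the filter. The interaction called 0 genes, against 63, of which 6 were among the 39, without the filter and 0 to 12 without 1 library.

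The labels do not say whether replicate numbers pair the libraries, and same-numbered libraries were only weakly correlated. Over 18 pairs of same-numbered libraries, deviations from the group means correlated at -0.09 to 0.11, with 1 pair over 0.1, and 8 of 12 libraries correlated best with their own number. With a replicate block, 4 of the 39 genes (Dhx58, Oasl1, Rtp4 and Ifi44) and 148 of all genes were called with Hes1 loxP. At 3 libraries per group and 0.471 CPM per kb for the lowest gene, small differences in genes such as Mx2 and Ifit3b could not be resolved.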
